A study of Arabidopsis thaliana with 12 samples.

Results

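Described here are 10 Arabidopsis loci that encode CC-type glutaredoxins, together with the ratio of their RNA between dexamethasone-treated (Dex) and mock-treated inflorescences. They were chosen by their measured ratios on these same arrays, on which most of them were lower with Dex, and they are 10 of the 13739 loci named on the array and 10 of the 18125 features tested. A tandem run on chromosome 4 holds 4 of them (AT4G15660, AT4G15670, AT4G15680 and AT4G15700), and 3 lie close together on chromosome 3 (AT3G62930, AT3G62950 and AT3G62960). The other 3 loci are AT2G30540 and AT2G47870 on chromosome 2 and AT1G06830 on chromosome 1. Each locus had 1 probe, all 10 probes passed the filter on missing values, and no member was lost.

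Glutaredoxins are small proteins that use glutathione to reduce disulfide bonds in other proteins. The CC-type class occurs in land plants and is named after a pair of adjacent cysteines in its active site, whereas the older CPYC and CGFS classes are shared with other organisms. Several CC-type proteins bind TGA transcription factors in the nucleus, and through them the class is known for roles in petal and anther development, in defence and in nitrogen signalling.

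The plants carried 35S:HAN-GR in the Landsberg erecta background. HANABA TARANU (HAN) is a GATA factor that acts in floral meristems and organ boundaries. Here it was driven in most tissues by the viral 35S promoter and fused to the hormone-binding part of the glucocorticoid receptor, which keeps a protein out of the nucleus until Dex is given. Inflorescences with flower buds of stages 1 to 9 were taken 4, 12 and 72 h after 10 µM Dex or mock treatment. Both treatments used plants with the fusion, and Dex-treated plants without it were not among the samples, so effects of Dex and of HAN-GR cannot be told apart. HAN itself (AT3G50870) had 0 named probes among those used here. Each of the 12 arrays co-hybridised Dex and mock RNA of one time point, with 4 arrays per time point that the labels call biological replicates. Dex RNA carried Cy5 on 2 arrays and Cy3 on 2 arrays of each time point. In such bulk tissue, fewer cells of a type and less RNA per cell cannot be told apart, and a ratio gives no level, so the labelled tissue could not be checked by the level of its markers.

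Values are log2 ratios, centred so that the median of the tested features is 0 on each array. They are read as Dex over mock, which is likely but is not stated in the sources used here. A deposited value of 6.64 or -6.64 (a ratio of 100 or 0.01) is a limit, was taken as a bound and did not enter a mean. An array gave 21888 to 22385 gene probes with a value, of which 9.43% to 17.2% sat at a limit. With the limit values kept, the pairs of 4 h arrays with the same labelled dye correlated at -0.82 and -0.81 over all features. At 12 h and 72 h such pairs correlated at 0.53 to 0.83, and pairs with different labelled dyes at -0.75 to -0.49. The limit values thus followed the labelled dye at 12 h and 72 h but not at 4 h. These values do not settle the direction of the ratio. With the limit values missing, the 4 h pairs with the same labelled dye correlated at 0.18 and 0.20, and the other 4 h pairs at 0.20 to 0.64. If the sign were turned, each value below would change its sign and each rank from the lowest would become the same rank from the highest. The third array of 72 h stood apart: its median absolute log2 ratio was 0.50, against 0.20 to 0.28 on the other 11 arrays.

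At 4 h, 7 of the 10 loci had a mean log2 ratio under -2, at 12 h 6 did and at 72 h 5 did. Of all tested features, 0.359%, 0.579% and 0.568% lay under -2 at these times. Means under -1 were found for 7, 9 and 6 loci, beside 2.98%, 4.09% and 3.98% of all features. Over the 3 time points the median of the 10 loci was -2.32, -2.47 and -1.70, while that of all tested features was 0.00, 0.01 and 0.00. Because the loci were chosen for these ratios, the counts describe the choice and carry no test.

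**Figure D1:**
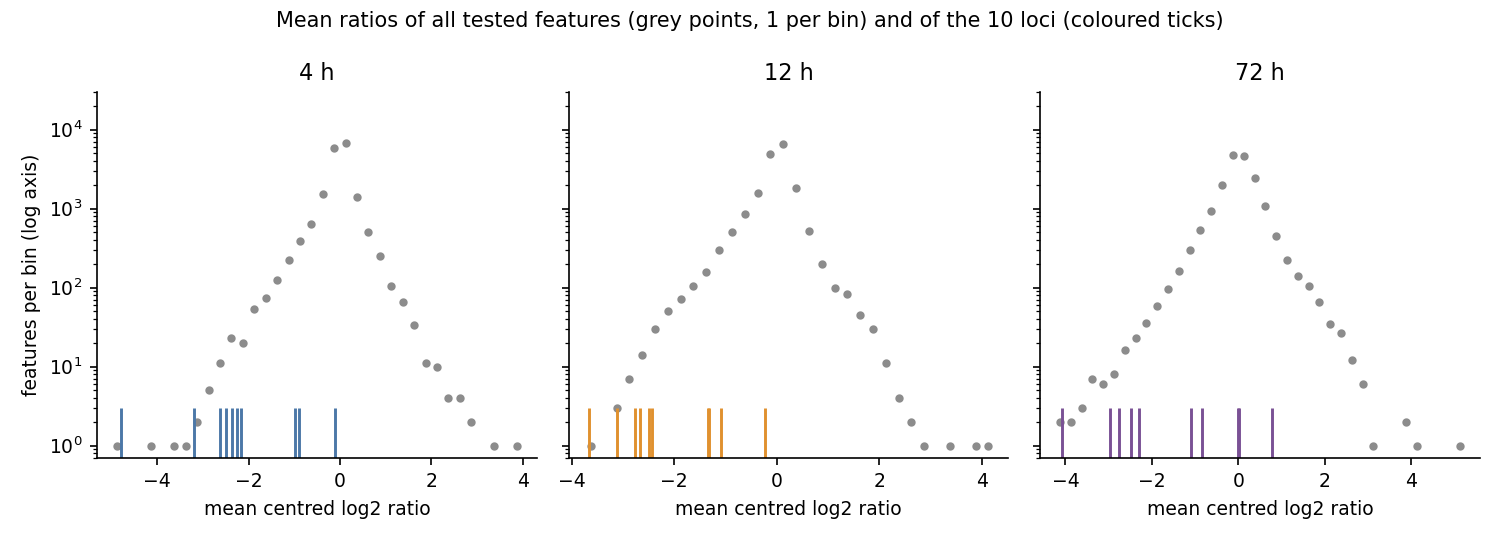
Number of tested features (log axis) by mean centred log2 ratio in bins of width 0.25, as grey points for each time point, with the 10 glutaredoxin loci as coloured ticks at their means. Most ticks lie in the left tail, where 0.359%, 0.579% and 0.568% of all features have a mean under -2, and the ticks near 0 at 72 h are AT3G62950 and AT2G47870.

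Among loci with a value on all 4 arrays of a time point, 8 of 9 were lower with Dex on 4 of 4 arrays at 4 h, 8 of 9 at 12 h and 6 of 10 at 72 h. The same held for 18.1%, 22.4% and 16.2% of all features with 4 values. Of the 8 loci with all 12 values, 4 were lower on 12 of 12 arrays (AT4G15660, AT4G15670, AT4G15700 and AT3G62930), as were 5.06% of all features with 12 values. Means under -2 at all 3 time points were found for AT4G15660, AT4G15670, AT4G15680, AT3G62930 and AT2G30540, which are 5 of the 17 features (0.0938% of all) with that pattern.

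The chromosome 4 loci lie next to each other in gene order, with another CC-type locus, AT4G15690, between AT4G15680 and AT4G15700. AT4G15660 was at -2.51, -2.53, -2.02 and -2.43 on 4 h replicates 1 to 4, a mean of -2.37 ± 0.24 (SD, n = 4), or 5.18-fold lower with Dex. At 12 h it was at -2.48, -2.23, -2.42 and -2.64, with a mean of -2.44 ± 0.17 (n = 4). At 72 h it was at -2.60, -3.01, -1.44 and -2.86, with a mean of -2.48 ± 0.71 (n = 4). All 12 values lay below 0, and the highest of them was that of 72 h replicate 3.

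AT4G15670 followed the same course, with -2.36, -2.29, -1.96 and -2.43 at 4 h. Its 12 h values were -2.56, -2.36, -2.46 and -2.61, and its 72 h values -2.58, -2.74, -1.24 and -2.64. The means were -2.26 ± 0.21, -2.50 ± 0.11 and -2.30 ± 0.71 (SD, n = 4 each). The values of AT4G15660 and AT4G15670 differed by a median of 0.11 and by at most 0.27 over the 12 arrays, the smallest median difference of any pair in the set. Cross-hybridisation between such tandem copies was not tested, since the probe sequences were not used here.

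AT4G15680 was at -2.57, -3.06, -2.73 and -2.17 at 4 h and at -2.71, -3.61, -1.48 and -3.19 at 72 h. At 12 h it was at -2.63, -2.44 and -2.92 on replicates 1 to 3 and at the lower limit on replicate 4. Its means were -2.63 ± 0.37 (n = 4), -2.66 ± 0.24 (n = 3, the limit value left out) and -2.75 ± 0.92 (n = 4). Its median difference was 0.26 both from AT4G15660 and from AT4G15670 over 11 arrays, and its largest was 0.87, from AT4G15670.

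AT4G15700, the last locus of the run, lay closer to 0. Its 4 h values were -1.09, -1.04, -0.72 and -0.69, followed by -1.50, -1.10, -1.31 and -1.45 at 12 h and -1.72, -1.22, -0.10 and -1.36 at 72 h. The means were -0.89 ± 0.21, -1.34 ± 0.18 and -1.10 ± 0.70 (n = 4 each), and its median difference from AT4G15660 was 1.33. At 4 h the highest of the 12 values of the first 3 loci (-1.96) lay below the lowest value of AT4G15700 (-1.09), so the loci did not overlap at that time.

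On chromosome 3 the loci differed from each other. AT3G62930 had values of -2.74, -2.63, -2.23 and -2.39 at 4 h, then -3.43, -2.78, -3.26 and -2.99 at 12 h and -2.85, -3.75, -1.82 and -3.42 at 72 h. Its means of -2.50 ± 0.23, -3.12 ± 0.29 and -2.96 ± 0.85 (n = 4 each) correspond to ratios 5.65-, 8.67- and 7.77-fold lower with Dex. At 12 h it was the third lowest of the 18125 features.

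AT3G62950 was near 0 at 4 h, at -0.37, -0.33, 0.36 and -0.10 (mean -0.11 ± 0.34, n = 4). At 12 h it was at -1.50, -2.17, -0.81 and -0.78, a mean of -1.31 ± 0.66 (n = 4) or 2.49-fold lower. At 72 h it was at -0.60, -0.55, 1.12 and 0.06, a mean of 0.0071 ± 0.80 (n = 4). Every 12 h value lay below every 4 h and 72 h value, and among the 10 loci this was the only one whose mean was under -1 at 12 h but above -0.5 at both other times.

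AT3G62960 had its lowest values at 4 h, at -2.18, -2.68, -2.25 and -1.55 (mean -2.16 ± 0.47, n = 4, 4.48-fold lower). It was at -1.62, -0.81, -1.48 and -0.41 at 12 h (mean -1.08 ± 0.57, n = 4) and at -1.18, -1.19, 0.12 and -1.14 at 72 h (mean -0.85 ± 0.65, n = 4). Its 4 h and 72 h values did not overlap, whereas 1 of its 12 h values (-1.62) lay below the highest 4 h value (-1.55). The median difference between AT3G62930 and AT3G62950 was 2.34 and that between AT3G62930 and AT3G62960 was 1.80, larger than among the first 3 loci of the chromosome 4 run.

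AT2G30540 had the lowest ratios of the set. It was at -4.49, -5.01 and -4.87 on 4 h replicates 1 to 3 and at the lower limit on replicate 4, which gave a mean of -4.79 ± 0.27 (n = 3, the limit value left out), or 27.7-fold lower with Dex. At 12 h it was at -3.51, -3.98, -3.95 and -3.24 (mean -3.67 ± 0.36, n = 4, 12.7-fold lower), and at 72 h at -4.20, -4.19, -3.30 and -4.61 (mean -4.07 ± 0.55, n = 4, 16.8-fold lower). Its mean ranked 1 from the lowest of the 18125 features at 4 h and at 12 h and 2 at 72 h. The bounds of AT2G30540 at 4 h and of AT4G15680 at 12 h came from arrays on which 0% and 0.194% of the limit values were positive, so a lower limit was the common one there.

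AT2G47870 was at -0.87, -1.01, -1.41 and -0.63 at 4 h, a mean of -0.98 ± 0.33 (n = 4) or 1.98-fold lower. It was at -0.12, -0.29, -0.55 and 0.03 at 12 h (mean -0.23 ± 0.25, n = 4) and at 0.55, -0.74, 0.43 and -0.25 at 72 h (mean -0.00094 ± 0.60, n = 4). All 4 h values lay below all 12 h values, and at 72 h the replicates lay on both sides of 0.

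AT1G06830 was at -3.19, -3.30, -2.98 and -3.28 at 4 h (mean -3.19 ± 0.15, n = 4, 9.10-fold lower) and at -2.62, -2.98, -3.04 and -2.41 at 12 h (mean -2.76 ± 0.30, n = 4, 6.79-fold lower). At 72 h its replicates were at 2.58, -2.88, 4.93 and -1.50, a mean of 0.78 ± 3.61 (n = 4). At 72 h 2 arrays were far above 0 and 2 far below it, 1 of each labelled dye on either side, so its mean there describes none of the 4 arrays.

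**Figure D2:**
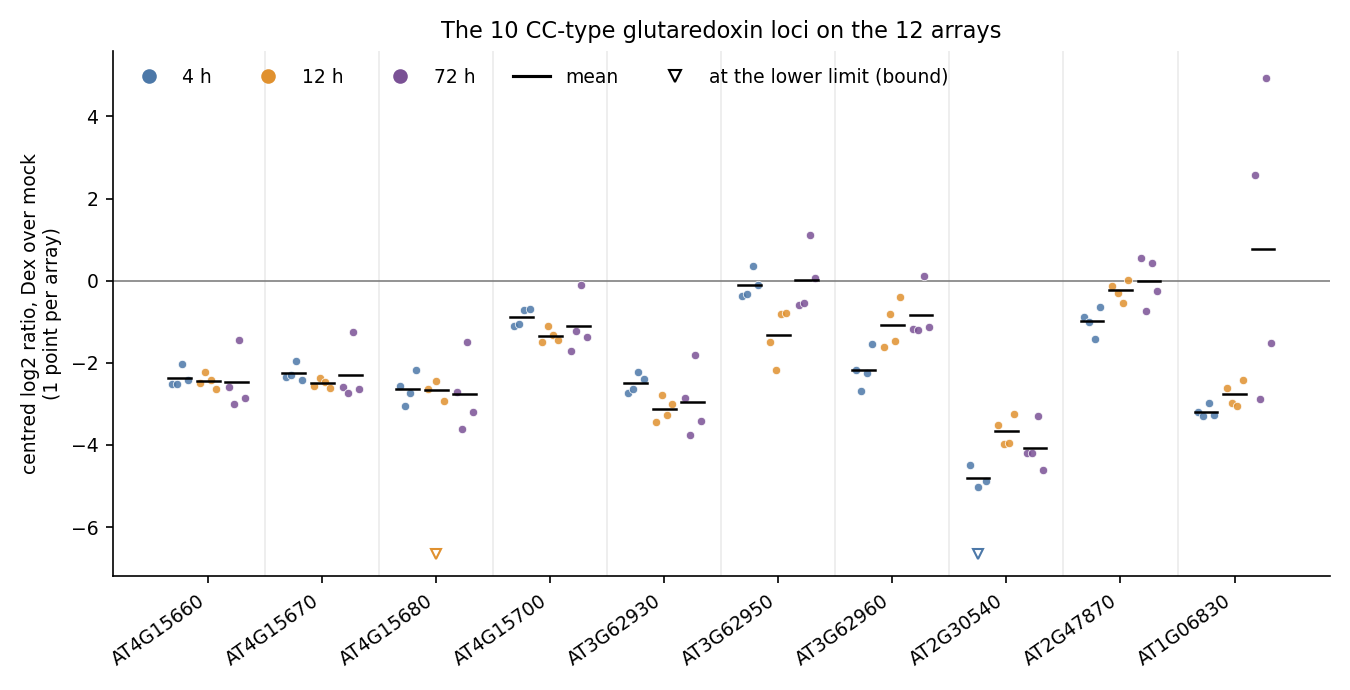
Centred log2 ratio, Dex over mock, of the 10 CC-type glutaredoxin loci, 1 point per array, coloured by time point, with black bars at the means and open triangles for values at the lower limit, which are bounds. AT2G30540 lies lowest throughout, AT3G62950 is under -0.5 on every array only at 12 h, and AT1G06830 spreads from -2.88 to 4.93 at 72 h.

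On 72 h replicate 3, 9 of the 10 loci had their highest 72 h value. The median of the set was -0.67 on that array, against -2.15, -2.81 and -2.07 on the other 72 h arrays, -2.58 to -2.13 at 4 h and -2.52 to -2.30 at 12 h. Without that array the 72 h means were -2.82 for AT4G15660, -2.65 for AT4G15670, -3.17 for AT4G15680 and -1.43 for AT4G15700. They were -3.34 for AT3G62930, -0.36 for AT3G62950 and -1.17 for AT3G62960. The mean of AT2G30540 became -4.33, that of AT2G47870 -0.14 and that of AT1G06830 -0.60. Each of the 10 means was lower without replicate 3, and that of AT1G06830 changed its sign.

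The ratios were also read within each labelled dye, with 2 arrays per dye and time point. The mean with Dex in Cy5 minus that with Dex in Cy3 ranged from -0.88 (AT4G15700 at 72 h) to 0.30 (AT2G47870 at 72 h) over the 10 loci and 3 time points. For AT2G30540 at 12 h the means were -3.97 with Cy5 and -3.37 with Cy3, and for AT3G62930 they were -3.02 and -3.21. Both orientations gave means on the same side of 0 in 27 of the 30 combinations of locus and time point. The loci were chosen for low ratios on these same arrays, so this count largely follows from the choice. The share among all features was not computed. At 4 h the limit values did not follow the labelled dye, so the split there is no check of dye. The dye term of the fit used the same labels. The exceptions were AT3G62950 at 4 h (-0.35 with Cy5, 0.13 with Cy3) and 72 h (-0.27 and 0.28) and AT2G47870 at 72 h (0.15 and -0.15).

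Differences between time points were read from the limma fit across all 18125 features. The loci were chosen on these same 12 arrays, so the differences are not independent of the choice and their p-values are no independent support. Only AT3G62960 passed the threshold, with a 72 h ratio 1.32 above its 4 h ratio (log2, SE 0.35, adjusted p = 0.0425), and all 4 later values lay above all 4 earlier ones. That is 1 of the 10 loci, where 8.55% of all features changed between 4 h and 72 h in either direction. The call was lost with 72 h replicate 3 left out (1.04, adjusted p = 0.082), with the limit values kept (adjusted p = 0.10), with only the 4 h and 72 h arrays in the fit (adjusted p = 0.072) and in 9 of the other 11 fits that left out 1 array, with adjusted p-values up to 0.11.

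Between 4 h and 12 h, limma called 0 of the 10 loci at an adjusted p under 0.05 and 4 at an unadjusted p under 0.05, beside 2.43% of all features at the adjusted threshold. Between 12 h and 72 h it called 0 of the 10, with 2 at an unadjusted p under 0.05, beside 4.14% of all features. AT2G30540 was 1.05 higher at 12 h than at 4 h (SE 0.26, adjusted p = 0.0807) and AT3G62960 1.08 higher (SE 0.35, adjusted p = 0.168). AT3G62950 was at a difference of -1.21 in the same comparison (SE 0.39, adjusted p = 0.168) and was 1.32 higher at 72 h than at 12 h (SE 0.39, adjusted p = 0.0903).

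For AT2G30540 the 12 h against 4 h difference passed when 72 h replicate 3 was left out (1.08, adjusted p = 0.023). With other single arrays left out its adjusted p-values reached 0.31. AT2G47870 was 0.98 higher at 72 h than at 4 h (SE 0.29, adjusted p = 0.0673). AT1G06830 was 3.97 higher at 72 h than at 4 h, with an SE of 1.37 and an adjusted p of 0.114. With 72 h replicate 2 left out the difference passed for AT2G47870 and AT1G06830, at 1.26 (adjusted p = 0.014) and 5.41 (adjusted p = 0.013). The same omission took the 72 h against 12 h differences of AT3G62950 (1.62, adjusted p = 0.041) and AT1G06830 (4.98, adjusted p = 0.032) past the threshold. Other omissions made these differences smaller. Without 72 h replicate 3, AT1G06830 was 2.48 higher at 72 h than at 4 h and 2.055 higher than at 12 h. AT3G62950 was 0.99 higher at 72 h than at 12 h without that array. Without 72 h replicate 1, AT2G47870 was 0.78 higher at 72 h than at 4 h. Over all fits that left out 1 array, the adjusted p-values of these 4 differences reached 0.22, 0.35, 0.24 and 0.17.

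In the fit to all 12 arrays, the 3 lowest loci of the chromosome 4 run moved little between time points. AT4G15660 differed by -0.07 between 12 h and 4 h and by -0.11 between 72 h and 4 h (SE 0.30 for both, adjusted p = 0.972 and 0.859). The differences of AT4G15670 and AT4G15680 ranged from -0.24 to 0.20, with adjusted p-values from 0.748 to 0.995. Without 72 h replicate 3 the 72 h against 4 h differences of these 3 loci were -0.46, -0.40 and -0.54. AT3G62930 was at -0.62 between 12 h and 4 h (SE 0.36, adjusted p = 0.556), and AT4G15700 at -0.45 (SE 0.27, adjusted p = 0.579). Between 72 h and 4 h AT3G62930 was at -0.46 (SE 0.36, adjusted p = 0.464) and at -0.86 without 72 h replicate 3. With array weights that difference passed (-0.77, adjusted p = 0.029). P-values that miss the threshold do not show that a ratio stayed the same.

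The rest of the family was read in the same fits. Of 11 further CC-type loci, 8 had a probe and 6 were tested. At 4 h limma called 0 of these 6 at an adjusted p under 0.05 and 2 at an unadjusted p under 0.05, beside 11.1% of all features at the adjusted threshold. At 12 h it called 3 of 6, of which 2 were lower and 1 higher, beside 15.8% of all features, and at 72 h 2 of 6, both higher, beside 20.7% of all features in either direction and 9.88% higher. The median of the 6 loci was 0.09, 0.36 and 0.28 at the 3 times. These are the loci of the class that the choice of the 10 left over, so the difference in sign from the 10 follows from the choice.

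ROXY1, which is required for petal initiation, was lower at 12 h at -0.62, -0.24, -0.54 and -0.81 (mean -0.55 ± 0.24, n = 4, adjusted p = 0.0081). Its means were 0.14 ± 0.26 at 4 h and -0.26 ± 0.10 at 72 h (adjusted p = 0.61 and 0.14), and without 12 h replicate 4 the 12 h call was lost (adjusted p = 0.064). ROXY2, which acts with ROXY1 in anther development, was lower at 12 h at -1.40, -1.10, -1.14 and -0.64 (mean -1.07 ± 0.32, n = 4, adjusted p = 0.0066). It was at -0.51 ± 0.26 at 4 h and at -0.41 ± 0.69 at 72 h (adjusted p = 0.21 for both), and without 72 h replicate 3 it passed at both times (-0.51 and -0.76, adjusted p = 0.031 and 0.0093).

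AT5G11930 was higher at 72 h, at 0.81, 1.22, 1.77 and 1.48 (mean 1.32 ± 0.41, n = 4, adjusted p = 0.00014), after 0.49 ± 0.25 at 12 h (adjusted p = 0.047) and 0.01 ± 0.10 at 4 h (adjusted p = 0.99). Its 12 h call was lost in 9 of the 12 fits that left out 1 array, with adjusted p-values up to 0.19. Its 72 h ratio was 1.31 above its 4 h ratio (SE 0.21, adjusted p = 0.00383). AT4G33040 was also higher at 72 h, at 0.52, 0.88, 1.36 and 1.27 (mean 1.01 ± 0.38, n = 4, adjusted p = 0.0020). AT4G33040 lost that call with only the 72 h arrays in the fit (adjusted p = 0.078). At 4 h and 12 h it was at 0.52 ± 0.33 and 0.54 ± 0.31 (n = 4 each, adjusted p = 0.088 and 0.055), and it passed at both times without 4 h replicate 1 (adjusted p = 0.046 and 0.042) or 72 h replicate 1 (adjusted p = 0.046 and 0.029).

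GRX480, a CC-type glutaredoxin that binds TGA factors in defence, passed at no time point, with means of 0.79 ± 1.02, 0.26 ± 0.34 and 0.42 ± 0.76 (n = 4 each, adjusted p = 0.24 to 0.76). Without 4 h replicate 1 it passed at 4 h (1.30, adjusted p = 0.026). AT1G03020 passed at none either, at 0.03 ± 0.17, 0.46 ± 0.16 and 0.16 ± 1.31 (n = 4, 4 and 3, with an upper limit on 72 h replicate 1). It passed at 12 h with only the 12 h arrays in the fit (0.46, adjusted p = 0.015) and with array weights (0.41, adjusted p = 0.021). AT4G15690, within the chromosome 4 run, was at a limit on 9 of 12 arrays, 5 times at the upper and 4 times at the lower, each time with the sign of most limit values on that array. Its 3 measured values were 4.17, 0.04 and 0.27 on replicate 4 of 4, 12 and 72 h. AT2G47880, next to AT2G47870, was at a limit on 11 arrays and had no value on the other, so no response is stated for these 2 loci.

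CPYC-type glutaredoxins, the class shared with animals and yeast, had 6 listed and 6 tested loci. At 4 h and at 12 h limma called 0 of them, with 1 and 0 at an unadjusted p under 0.05, and at 72 h it called 2, both higher. The shares of all features were 11.1%, 15.8% and 20.7%, with 9.88% higher at 72 h. GRXC1, a cytosolic member, was at 0.29, 0.54, 2.10 and 0.41 at 72 h (mean 0.84 ± 0.85, n = 4, adjusted p = 0.023), and its highest value was again that of replicate 3. Without that array it was at 0.43 at 72 h (adjusted p = 0.01) and passed at 4 h too (0.62, adjusted p = 0.00059). AT2G20270 was at 0.78, 0.33, 1.15 and 0.22 at 72 h (mean 0.62 ± 0.43, n = 4, adjusted p = 0.012), and lost the call without replicate 1 (adjusted p = 0.052). With only the 72 h arrays in the fit, GRXC1 and AT2G20270 lost their 72 h calls (adjusted p = 0.22 and 0.21). GRXC2, AT1G77370, AT5G20500 and the plastid GrxC5 passed at no time point, with means between -0.30 and 0.50. Of these, GrxC5 passed at 72 h without replicate 2 (0.65, adjusted p = 0.023). GRXC2 passed at 12 h with only the 12 h arrays in the fit (-0.30, adjusted p = 0.038). Its 12 h values were -1.17 and -0.95 with Dex in Cy3 and 0.45 and 0.48 with Dex in Cy5. None of the 4 listed CGFS-type loci had a probe among those used here.

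**Figure D3:**
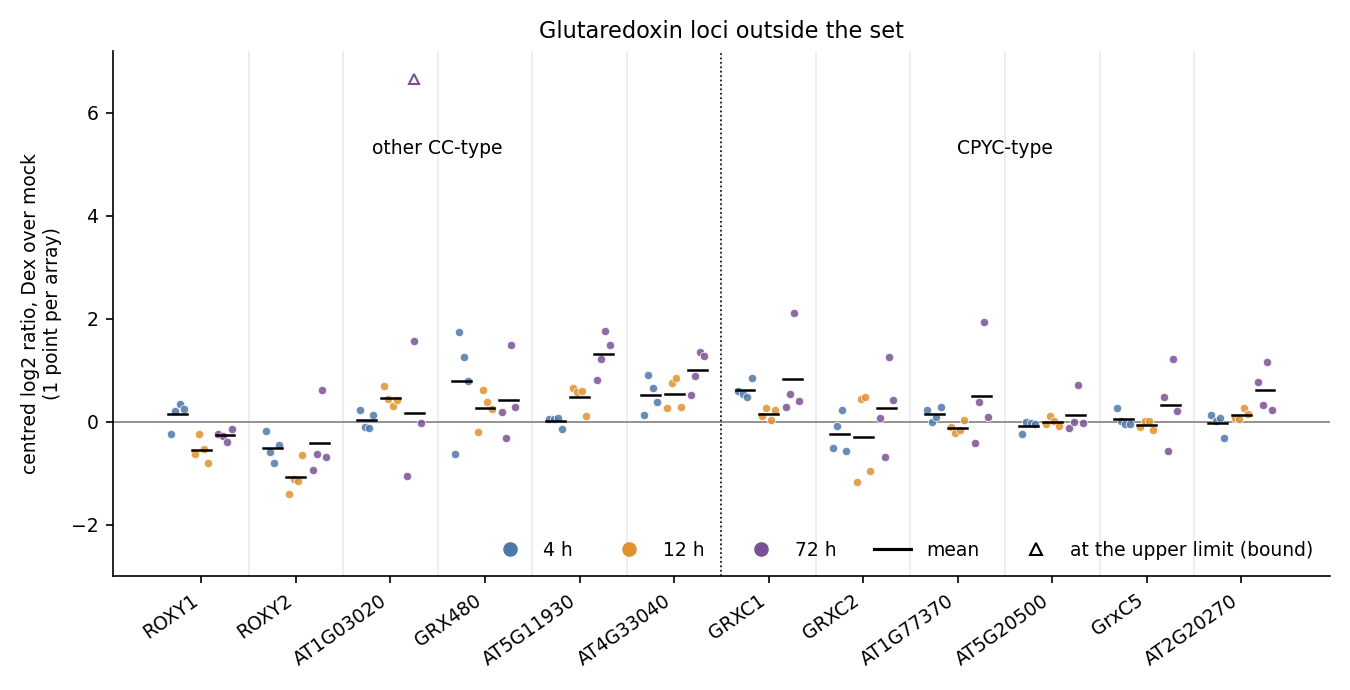
Centred log2 ratio, Dex over mock, of the 12 tested glutaredoxin loci outside the chosen set, 1 point per array, coloured by time point, with black bars at the means and an open triangle for a value at the upper limit. ROXY1 and ROXY2 lie below 0 at 12 h, AT5G11930 and AT4G33040 lie highest at 72 h, and the lowest mean is that of ROXY2 at 12 h, -1.07.

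Genes next to the 10 loci in the TAIR10.1 gene order were examined, up to 3 protein-coding genes on each side and those in between. Of 31 such neighbours, 15 had a probe and 14 were tested. At 4, 12 and 72 h limma called 1, 0 and 1 of 14, beside 11.1%, 15.8% and 20.7% of all features, and at 12 h 3 had an unadjusted p under 0.05. The locus called at 4 h was AT1G06840 beside AT1G06830, which was higher (0.41 ± 0.16, n = 4, adjusted p = 0.030). That called at 72 h was AT4G15710 beside AT4G15700, which was lower (-0.45 ± 0.38, n = 4, adjusted p = 0.019). The call of AT1G06840 was lost without any one of the 4 h arrays or 12 h replicate 3 (adjusted p = 0.051 to 0.16), and that of AT4G15710 without 72 h replicate 1, 2 or 4 (adjusted p = 0.057 to 0.10). With only the arrays of its own time point in the fit, each of these calls was lost (adjusted p = 0.12 and 0.21). The medians of the 14 neighbours were 0.02, 0.05 and 0.11, and their lowest means -0.47, -0.76 and -0.45. No neighbour thus had a mean under -1 at any time, beside 2.98%, 4.09% and 3.98% of all features. The glutaredoxin loci were chosen for low ratios, so their contrast with the neighbours follows from the choice.

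**Figure D4:**
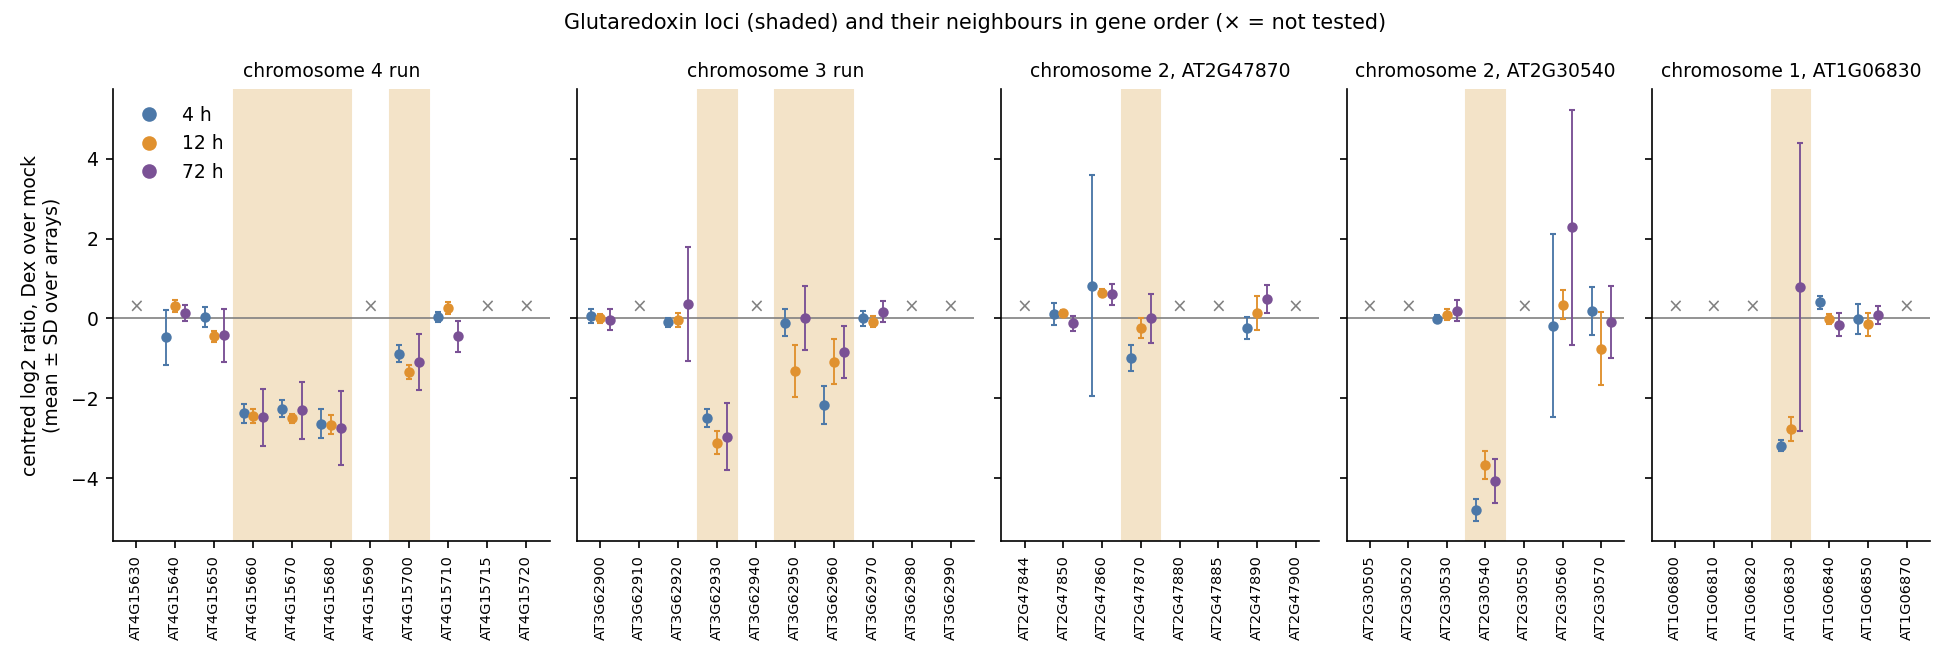
Mean centred log2 ratio (points) and SD over arrays (bars) of the glutaredoxin loci of the set (shaded) and their protein-coding neighbours, in gene order, at 4, 12 and 72 h, with a cross for genes that were not tested. The neighbours' means stay at or above -0.76, and the shaded loci, which were chosen for low ratios, reach -4.79. AT2G30560 beside AT2G30540 has the widest bar among the neighbours at 72 h (2.28 ± 2.95).

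Named loci whose ratios over the 12 arrays ran most like the mean of the 8 set loci with 12 values were searched among 9614 candidates outside the set. The 5 most alike were AT1G28250, AT3G08990, AT4G16400, AT5G40960 and AT2G42240, with Pearson r from 0.96 to 0.97 and Spearman rho from 0.60 to 0.76 (n = 12). The mean of the 8 loci was 0.25 on 72 h replicate 3 and -1.05 on 72 h replicate 1, against -2.01 to -1.64 on the other 10 arrays. AT1G06830, which is among the 8, was at 4.93 and 2.58 on these 2 arrays, and the search was not repeated without it. Without these 2 arrays r was 0.41 to 0.63, so the likeness rests on them. AT4G16400 was the one of the 5 with means near -1 at 4 h and 12 h (-1.10 ± 0.19 and -1.02 ± 0.07, n = 4 each), and at 72 h it was at -0.36 ± 0.77 (n = 4).

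Lists of genes from pathways in which CC-type glutaredoxins are known to act were sparsely covered. Of 10 TGA factor loci and 13 vascular loci, 0 had a named probe among those used here. Of 30 nitrate response loci, 3 were tested, and at 4 h and 12 h 1 was called higher and 1 lower each time. Of all features, 11.1% and 15.8% were called at these times in either direction. NRT2.5, a nitrate transporter of nitrogen-starved plants, was at 2.03 ± 0.51 at 4 h and 1.85 ± 0.57 at 12 h (n = 4 each, adjusted p = 0.023 and 0.028) and at -1.19 ± 1.91 at 72 h (n = 3, adjusted p = 0.145, with 72 h replicate 1 at the upper limit and left out). AT1G68670 was lower at 4 h and 12 h, at -0.51 ± 0.12 and -0.53 ± 0.36 (n = 4 each, adjusted p = 0.035 and 0.025). All 4 calls were lost when any of 3 or more single arrays was left out, with adjusted p-values up to 0.15. NRT2.5 has no settled direction at 72 h, with -1.56, 0.87 and -2.89 on replicates 2 to 4 and the bound of replicate 1 on the opposite side of 0 from the mean. Without replicate 3, the 2 measured values gave -2.22 (adjusted p = 0.0069).

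Of 14 glutathione and thioredoxin loci, 3 were tested. GR1, a glutathione reductase, was higher at 12 h (0.29 ± 0.11, n = 4, adjusted p = 0.025). NTRC, a plastid thioredoxin reductase, was lower at 12 h (-0.32 ± 0.25) and at 72 h (-0.31 ± 0.14, n = 4 each, adjusted p = 0.036 for both). These calls were lost when any of 3 or more single arrays was left out, with adjusted p-values up to 0.18. The 72 h call of NTRC was also lost with only the 72 h arrays in the fit (adjusted p = 0.3). At 4 h limma called 0 of the 3, with 1 at an unadjusted p under 0.05. Of all features, 11.1%, 15.8% and 20.7% were called at 4, 12 and 72 h.

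Of 10 type-A response regulators, which are early targets of cytokinin, 2 were tested. ARR15 was lower at all 3 times, at -1.73 ± 0.41, -1.64 ± 0.12 and -1.10 ± 0.55 (n = 4 each, adjusted p = 0.00014, 0.00013 and 0.0017), and RR16 passed at none. With only the 72 h arrays in the fit, the 72 h call of ARR15 was lost (adjusted p = 0.073). Of 13 photosynthesis loci, markers of green tissue, 3 were tested, of which limma called 0 at 4 h (0 at an unadjusted p under 0.05), 2 at 12 h and 2 at 72 h, all lower, beside 11.1%, 15.8% and 20.7% of all features. LHCB4.1 was at -1.10 ± 0.69 at 12 h (adjusted p = 0.016) and -0.04 ± 0.76 at 4 h, SBPASE at -0.82 ± 0.53 and -0.74 ± 0.67 at 12 h and 72 h (adjusted p = 0.0084 and 0.013), and PORB at -0.67 ± 0.21 at 72 h (adjusted p = 0.0047, n = 4 each). The 12 h calls of LHCB4.1 and SBPASE were lost without 12 h replicate 4 (adjusted p = 0.078 and 0.061), and that of LHCB4.1 also without replicate 1 or 2. SBPASE lost its 72 h call without replicate 3 (adjusted p = 0.057), and PORB gained one at 12 h without replicate 1 (-0.48, adjusted p = 0.046). With only the 72 h arrays in the fit, SBPASE and PORB lost their 72 h calls (adjusted p = 0.091 and 0.11). The means of the 3 green-tissue loci at 4 h were between -0.24 and -0.02. The part of green-tissue content in the ratios was not tested at any of the 3 times.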

How the data were processed

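The authors deposited a table of log2 ratios of 12 two-colour oligonucleotide arrays. Per the labels' protocols, RNA was amplified by in vitro transcription before dye coupling. How the background was corrected and the values were normalized and centred, and which channel is the numerator, is not given in the sources used here. From the limits, the logarithm was read as base 2. Ratios do not show signal over background, and the precision stated rests on the number of arrays.

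Of 26540 rows, 26090 were gene probes, 13960 of them with 1 gene name, 0 with several and 12130 with none. Of the named probes, 13912 matched the TAIR10.1 gene table by gene ID and 42 by locus name, AT2G47870 among the latter. Probes of a locus were averaged, and features with at least 3 measured values at each time point were kept. Each array was centred on its median, and limma 3.58.1 in R 4.3.3 fitted a mean per time point and a labelled-dye term to all 12 arrays, with empirical Bayes moderation. P-values were two-sided, adjusted by Benjamini-Hochberg over all 18125 features, threshold 0.05. The fit was also run on simulated data, with 1 spread per feature at all time points and a dye effect that followed the labels. That run is no check of the wider spread of the set at 72 h or of the dye labels at 4 h. Means, SDs and n are over arrays, and SEs are the fit's.

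The members, the gene lists and the named-gene rule were chosen with earlier results of these data known. The rule named the 10 loci, every measured glutaredoxin, called members of the other lists (at most 6 a list) and the 5 loci most alike. Neighbours were named where called. Alternatives kept the limit values, omitted centring or the dye term, used quantile normalization, 2 values per time point, a replicate block, array weights, only the arrays compared, a threshold of 0.01, or left out each array. Reading the dye from the sign of the limit values was added after seeing the data. The pairing of arrays by replicate number was not settled. Same-number pairs of different time points correlated at -0.29 to 0.32 in their deviations (12 pairs, 4 above 0.1). Different-number pairs correlated at -0.33 to 0.30 (36 pairs, 16 above 0.1). The sign of r went with the sign of most limit values on the arrays, so the check cannot exclude pairing.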

Additional observations from a re-analysis of the deposited data

Results flagged for a closer look

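Over 32 named loci, 92 groups of 4 arrays were examined for a single array far from the other 3. Chance marks about 5% of such groups, and 7 were marked, 4 of them on 72 h replicate 3. In the set, AT4G15670 was at -1.24 on that array, with the others from -2.74 to -2.58, and AT3G62960 was at 0.12, with the others from -1.19 to -1.14. GRXC1 (AT5G63030) was at 2.10 there, with the others from 0.29 to 0.54, and AT5G20500 at 0.71, with the others from -0.12 to -0.01. At 4 h, AT5G20500 was at -0.23 on replicate 1, with the others from -0.04 to -0.01. AT5G11930 was at -0.14 on 4 h replicate 4 and at 0.11 on 12 h replicate 4, with the others from 0.05 to 0.07 and from 0.59 to 0.66.

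Responses that differed between time points in limma's fit are also listed. AT3G62960 differed by 1.32 between 72 h and 4 h (adjusted p = 0.043), lost in 10 of the 12 fits that left out 1 array, and AT5G11930 by 1.31 (adjusted p = 0.0038). NRT2.5 (AT1G12940) differed by -3.30 between 72 h and 4 h and by -3.12 between 72 h and 12 h (adjusted p = 0.025 and 0.049). These rest on 3 measured values at 72 h, with replicate 1 at the upper limit, and were lost with the limit values kept (-1.26 and -1.07, adjusted p = 0.82 and 0.90) and in 5 and 11 of the 12 fits that left out 1 array (adjusted p up to 0.11 and 0.19). Among the neighbours, AT4G15710 differed by -0.71 between 72 h and 12 h and AT1G06840 by -0.57 between 72 h and 4 h (adjusted p = 0.041 and 0.043), and these were lost in 9 and 11 of those 12 fits (adjusted p up to 0.13 and 0.12).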

How the results depend on the processing

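No difference past the threshold changed its sign under any alternative run, but values not past it did. Among the set means, AT1G06830 at 72 h turned from 0.78 to -0.60 without 72 h replicate 3 and to -0.88 with array weights, and the 72 h means of AT3G62950 and AT2G47870 turned under 4 and 3 alternatives. Sign changes numbered 42 among the time differences of the set and 75 among the other named loci. The set means stayed within 1 SD in 620 of 630 comparisons, but leaving out 1 array could not have moved a mean that far. Those comparisons are therefore no check, and an array of another time point did not enter the mean at all. The turn of AT1G06830 to -0.60 also counted as within 1 SD, since its SD at 72 h was 3.61. Keeping the limit values moved AT4G15680 at 12 h from -2.66 to -3.65 and AT2G30540 at 4 h from -4.79 to -5.25. Quantile normalization moved 8 means, among them AT2G30540 (-4.42), AT3G62930 (-3.85), AT4G15680 (-3.23) and AT1G06830 (-3.34) at 12 h. The loci under -1 numbered 7 to 8, 8 to 9 and 5 to 7 at 4, 12 and 72 h with 1 array left out. Of the time differences of the set, 601 kept their side of the threshold, 16 passed newly and 13 were lost.

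Called features numbered 2009, 2867 and 3758 at 4, 12 and 72 h, and 441 (12 h against 4 h), 1549 (72 h against 4 h) and 750 (72 h against 12 h) for the differences. In the same order, a threshold of 0.01 gave 1200, 1671, 2005, 81, 601 and 167, and only the arrays compared gave 1145, 4801, 614, 860, 592 and 327. Array weights gave 4453 and 6820 at 4 h and 12 h and 3001, 3434 and 3066 for the differences. Keeping the limit values gave 138, 873 and 236 for the differences, while quantile normalization gave 720 and the dye from the limit signs 679 for 12 h against 4 h. Leaving out 1 array gave 1330 to 2733, 1739 to 3904, 2449 to 3843, 100 to 920, 1011 to 1685 and 201 to 810. The lowest of these came without 4 h replicate 2, 12 h replicate 4, 72 h replicate 4, 12 h replicate 3, 4 h replicate 4 and 12 h replicate 4, and the 920 without 72 h replicate 3.

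Other glutaredoxins (6 CC-type and 6 CPYC-type loci tested) called numbered 0, 3 and 4 at 4, 12 and 72 h. Of all features, 11.1%, 15.8% and 20.7% were called. At 4 h array weights gave 4, quantile normalization 2 and 1 array left out 0 to 2. All features called then numbered 4453, 2878 and 1330 to 2733. At 12 h array weights gave 5 and only the arrays compared 6, beside 6820 and 4801 of all features. At 72 h the threshold of 0.01 gave 2 and only the arrays compared 1, beside 2005 and 614 of all features.

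With the replicate number as a block, which the pairing check did not settle, the differences numbered 157, 1010 and 327. The other glutaredoxins called at 4 h then numbered 1, beside 1664 of all features. Ratios give no signal over background, so depth could not be judged.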
